A study of Mus musculus with 10 samples.

Results

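Collagens are extracellular matrix proteins built from 3 chains wound around each other, and each chain is encoded by its own gene. Fibrillar collagens form the fibers of connective tissue, type IV collagens form the sheet inside basement membranes, and the remaining classes coat fibers, span the cell membrane or build filaments and short networks. In the brain, fibrillar collagens are known mainly from the meninges and the walls of larger vessels, and type IV collagens from the basement membrane around capillaries. Several of the fiber-associated and membrane-spanning chains are also made by neurons. The genes described here are the collagen chain genes on the array, chosen by symbol alone (Col, a type number, a and a chain number), with no measured value used in the choice. They are 42 genes with 70 probes, of 18539 named genes and 41174 probes in all. The RefSeq gene table holds 44 collagen chain genes, and the other 2, Col6a3 and Col12a1, had no probe matched to them here.

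The arrays measured RNA from the left hemibrains of 10 single-housed male C57BL/6J mice, received at 3 weeks of age and kept on a diet for 20 weeks, until 5 months of age. Hemibrain RNA carried the dye Cy-5 and a second RNA, by the labels and the methods the same on every array, carried Cy-3. The purpose of the study was to compare a fish oil enriched diet (FD) with a standard diet (SD), but the diet of each array was not settled. By the diet entries of the labels every Cy-5 sample was FD and Cy-3 was pooled SD hemibrain, yet their descriptions read controls, whereas the methods count 4 FD and 3 SD arrays, with purchased reference RNA in Cy-3. No FD to SD comparison was therefore made, and the spread between arrays may hold a diet effect. Animals are given by their label, such as C10-434.

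Values are log2 ratios of the Cy-5 to the Cy-3 processed signal, so that 0 is equal signal and values above 0 are higher in Cy-5. A gene is said to be detected in a dye on an array where its probe was flagged as well above background. A gene was called higher or lower in the hemibrain at an adjusted p under 0.05 (limma over all probes, Benjamini-Hochberg) with at least a 1.5-fold difference. Because dyes were not swapped, an effect of the dye cannot be told apart from an effect of the RNA, and because Cy-3 held 1 RNA, the test leaves out its own spread. A mixture of cell types was measured, so fewer cells of a type and less RNA per cell cannot be told apart.

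The labeled tissue was checked against marker genes. All 7 neuron markers, 5 astrocyte markers and 4 oligodendrocyte markers were higher in Cy-5, with median log2 ratios of 6.28, 4.24 and 5.46. Of the endothelial markers 6 of 8 were higher and 1 was lower (median 3.25), of the mural cell markers 4 of 8 were higher and 2 lower (median 1.92), and of the markers of meningeal and perivascular fibroblasts 4 of 9 were higher and 4 lower (median -0.23). All 5 proliferation markers were lower in Cy-5, with a median of -6.39. Over the arrays the median of the fibroblast list ranged from -0.70 to 0.31, that of the endothelial list from 2.46 to 4.61 and that of the mural list from 1.20 to 3.00. The part of these cell types in the collagen ratios was not tested. The array of C10-434 stood apart, where 50.4% of spots were detected in Cy-5, and this share lay between 68.9% and 77.5% elsewhere. Its share was also the lowest in Cy-3, at 62.5% against 70.9% to 79.7%.

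Of the 42 collagen genes, 16 were higher in the hemibrain, 18 were lower and 8 were not called. Over all 18539 genes, 30.6% were called higher and 30.8% lower (61.4% in either direction), and the collagens, at 38.1% and 42.9%, had more calls in either direction. No test was run on this excess. The median collagen ratio was -0.07, against 0.04 for all genes, with large differences on both sides of 0. All 18 collagens called lower were below 0 on every array, and all 18 were detected in Cy-3 on every array. Of the 16 called higher, 12 were detected in Cy-5 on every array and 12 were above 0 on every array. Without C10-434, 16 collagens were called higher and 19 lower. Among the 26 collagens detected in both dyes on every array the median SD was 0.27, against 0.26 over all 18642 such probes. Replicate spots of a probe within an array had a median SD of 0.086. The sizes of the ratios depended on the background correction, where the 2 others tried also added an offset of 50 to the signals and a loess fit. With loess alone 0 of the 34 called collagens lay nearer to 0 by over 1.5-fold. With normexp 25 did, and with a plain subtraction and a floor 11 did. Col5a2, at -5.42, was -3.42 and -4.28 under these corrections, Col2a1, at -4.40, was -2.75 and -3.40, Col4a5, at -2.58, was -1.17 and -1.71, and Col13a1, at 2.38, was 1.05 and 1.61.

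**Figure D1:**
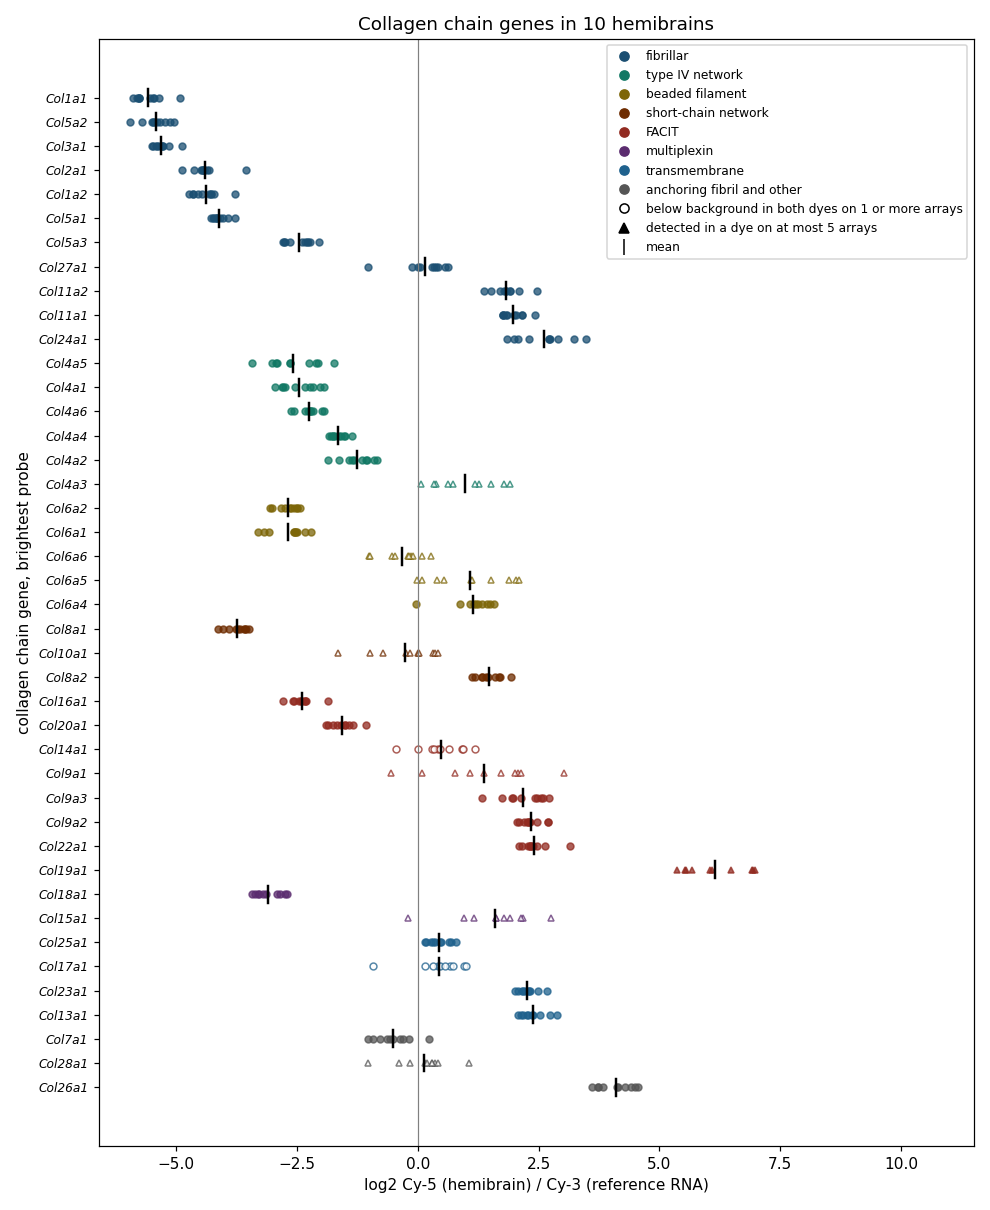
Log2 Cy-5/Cy-3 of the 42 collagen chain genes (y axis, grouped by class) on the 10 arrays, with the mean as a black bar. Points of the fibrillar genes fall into a set from -5.96 to -2.04 and a set from 1.36 to 3.48, with Col27a1 near 0. Open points mark genes below background in both dyes on at least 1 array, and triangles mark genes detected in a dye on at most 5 arrays.

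In their ratios, Col6a1 and Col6a2 varied together across the arrays, and so did Col1a2 and Col1a1. Many other genes shared these patterns, as given below, and shared regulation was not tested. Col9a2 and Col19a1 were high in the hemibrain. The upstream sequences of these collagens, other than Col1a1, are given here. Each is the 250 bases before the RefSeq transcription start (GRCm38.p6), written 5′ to 3′ on the strand of the gene. Capitals mark 3 motifs on either strand, GGGCGG, which is the GC box, CCAAT, and lastly TATAAA.
Col1a2, chr6:4505368-4505617, plus strand: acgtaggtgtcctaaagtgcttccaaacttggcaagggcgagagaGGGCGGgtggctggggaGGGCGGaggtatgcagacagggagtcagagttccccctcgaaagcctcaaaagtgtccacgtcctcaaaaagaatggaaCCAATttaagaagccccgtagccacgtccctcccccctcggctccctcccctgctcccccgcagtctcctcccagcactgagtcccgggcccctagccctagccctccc
Col6a1, chr10:76726045-76726294, minus strand: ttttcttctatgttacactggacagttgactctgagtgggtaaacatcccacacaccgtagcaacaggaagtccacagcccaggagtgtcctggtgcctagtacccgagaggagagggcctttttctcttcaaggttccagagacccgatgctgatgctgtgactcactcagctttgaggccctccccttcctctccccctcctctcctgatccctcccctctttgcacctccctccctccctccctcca
Col6a2, chr10:76623631-76623880, minus strand: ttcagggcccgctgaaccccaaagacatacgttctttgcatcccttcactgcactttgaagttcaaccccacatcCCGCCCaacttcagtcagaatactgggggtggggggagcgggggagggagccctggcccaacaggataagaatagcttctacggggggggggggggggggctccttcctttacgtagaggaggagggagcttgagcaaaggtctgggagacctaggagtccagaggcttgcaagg
Col9a2, chr4:121039316-121039565, plus strand: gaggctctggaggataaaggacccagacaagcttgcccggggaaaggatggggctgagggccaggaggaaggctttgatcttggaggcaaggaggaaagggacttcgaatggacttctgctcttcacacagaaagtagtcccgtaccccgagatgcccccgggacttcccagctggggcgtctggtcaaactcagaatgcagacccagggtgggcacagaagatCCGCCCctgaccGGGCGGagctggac
Col19a1, chr1:24587438-24587687, minus strand: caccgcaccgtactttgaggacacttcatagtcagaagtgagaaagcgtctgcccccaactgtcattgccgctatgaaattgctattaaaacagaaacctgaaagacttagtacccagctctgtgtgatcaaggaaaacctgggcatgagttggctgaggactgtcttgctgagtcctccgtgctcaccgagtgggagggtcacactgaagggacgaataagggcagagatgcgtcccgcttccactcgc

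Col1a2 held 3 matches, of which 2 were GC boxes and 1 was CCAAT. Col9a2 held 2 GC boxes and Col6a2 held 1, whereas the windows of Col6a1 and Col19a1 held no match. The table has 38 collagen windows of 35 genes, of which 22 (57.9%) held a GC box, against 32.7% of all 32851 windows. A CCAAT box was in 13 collagen windows (34.2%, against 33.8% of all) and TATAAA in 5 (13.2%, against 12.4%). A motif match is a description of the letters in the window, and no binding was measured. The starts of Col4a1 and Col4a2 face each other and overlap, as shown by the 30 bases of the plus strand around them (GRCm38.p6), in which capitals mark the 22 bases that lie within both transcripts.
Col4a1-Col4a2, chr8:11312800-11312829: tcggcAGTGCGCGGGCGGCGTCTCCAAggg

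Among the 11 fibrillar collagen genes 7 were lower in the hemibrain, 3 were higher and 1 was not called, with a median log2 ratio of -4.11. Col1a1 and Col1a2 encode the chains of type I collagen, the main collagen of skin and bone. Col1a1 ranged from -5.90 to -4.93 with a median of -5.66, a mean of -5.58 (SD 0.29, n = 10; adjusted p = 6.7e-14). Thus Cy-3 was 47.9-fold brighter than Cy-5, and the log2 Cy-5 signal of 11.4 was still detected on every array. Col1a2 ranged from -4.74 to -3.78 (median -4.40, mean -4.39, SD 0.28; adjusted p = 3.0e-13). C10-434 was the highest array for both type I chains, and its level of both was the lowest of the arrays in each dye. For Col1a1 this level was 16.1 in Cy-3 and 11.2 in Cy-5 (log2). Col3a1, the chain of the type III collagen that accompanies type I in vessel walls, ranged from -5.51 to -4.89 (median -5.33, mean -5.31, SD 0.18; adjusted p = 2.3e-14). C10-434 was again the highest array.

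Type V collagen sits inside type I fibers and limits their width, and its 3 chains were all lower. Col5a1 ranged from -4.28 to -3.78 (median -4.16, mean -4.11, SD 0.16; adjusted p = 5.5e-14). Col5a2 ranged from -5.96 to -5.05 (median -5.43, mean -5.42, SD 0.27) and was detected in Cy-5 on 9 arrays. Col5a3 was the least low of the type V chains, at -2.46 (SD 0.26), and its range of -2.79 to -2.04 did not overlap those of Col5a1 and Col5a2. Col2a1, the chain of cartilage collagen, had a mean of -4.40 (SD 0.34), but its 2 probes disagreed.

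The fibrillar genes that were higher in the hemibrain were Col24a1, Col11a1 and Col11a2. Col24a1 ranged from 1.84 to 3.48 (median 2.72, mean 2.60, SD 0.54; adjusted p = 5.6e-09) and was above 0 on every array. Its spread was wide for a collagen detected in both dyes on every array, with C10-437 highest and C10-416 lowest. Col11a1 ranged from 1.75 to 2.42 (median 1.91, mean 1.97, SD 0.22) and Col11a2 from 1.36 to 2.46 (median 1.81, mean 1.83, SD 0.30). The other probe of Col11a2 disagreed, with a mean of -0.30 and values below 0 on every array. Col11a1 and Col11a2 encode chains of type XI collagen, the partner of type II collagen in cartilage. Col27a1 was not called (mean 0.15, SD 0.48).

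Of the 6 type IV genes 5 were lower in the hemibrain, with a median of -1.95 over the class. Col4a1 and Col4a2 encode the chains of the common basement membrane network. Col4a1 ranged from -2.96 to -1.94 (median -2.44, mean -2.46, SD 0.36; adjusted p = 3.4e-10) and Col4a2 from -1.87 to -0.86 (median -1.24, mean -1.27, SD 0.32; adjusted p = 1.0e-07). The ranges of these neighboring genes, whose facing starts are printed above, did not overlap, although a ratio within an array shows only that the difference from Cy-3 was unequal. Both chains lay below 0 on every array. Markers of endothelial and mural cells, which lay down this membrane, were split (6 and 4 of 8 higher, 1 and 2 lower). The part of these cells in the ratios of the chains was not tested.

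Col4a5 and Col4a6 encode chains of a network found in smooth muscle and kidney. Col4a5 had a mean of -2.58 (SD 0.52) and was detected in Cy-5 on 9 arrays, and Col4a6 a mean of -2.26 (SD 0.22). Col4a4, a chain of the network known from the kidney filter, ranged from -1.85 to -1.37 (median -1.67, mean -1.65, SD 0.15), which was among the smallest spreads of the collagens. Col4a3, which belongs to the same network, was called higher, but it was detected in Cy-3 on no array and in Cy-5 on 1 array only, and no fold can be given.

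Among the FACIT genes, whose products attach to the surface of fibers, 5 of 8 were higher, 2 were lower and 1 was not called (median 1.78). Col19a1, a chain known from neurons and muscle, was detected in Cy-5 on every array and in Cy-3 on 2 arrays, so that its ratio is a lower bound and its animals have no order. With the Cy-3 signal of each array raised to at least the lowest signal of a detected probe, it was at least 41.0-fold higher in Cy-5. The measured ratio, not the bound, was tested against 0 (limma, adjusted p = 4.6e-12). The measured values ranged from 5.36 to 6.98 (median 6.07, mean 6.16, SD 0.63). The mean was 2.46 with normexp and 3.51 with a plain subtraction and a floor. Both lie below the log2 bound of 5.36, so the bound holds for the processed signals only. Col22a1, known from tissue junctions, ranged from 2.09 to 3.15 (median 2.33, mean 2.41, SD 0.30; adjusted p = 9.0e-11), with C10-434 highest.

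The 3 chains of type IX collagen, which decorates type II fibers in cartilage, were all called higher. Col9a2 ranged from 2.05 to 2.70 (median 2.29, mean 2.34, SD 0.22; adjusted p = 1.9e-11) and Col9a3 from 1.33 to 2.71 (median 2.28, mean 2.18, SD 0.44). Col9a1 was detected in Cy-5 on 7 arrays but in Cy-3 on 2, so that its animals have no order. Raising Cy-3 as for Col19a1 gave a 1.97-fold difference. Cy-5 was not raised on the arrays where it was undetected, so no lower bound can be given. Measured values of Col9a1 ranged from -0.55 to 3.01 (median 1.54, mean 1.37, SD 1.06). Its call was lost with normexp, at 0.17, and with the subtraction, at 0.37. Col16a1 (mean -2.41, SD 0.24) and Col20a1 (mean -1.56, SD 0.25) were the FACIT genes that were lower, and Col14a1 was not called (mean 0.47, SD 0.48).

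Type VI collagen forms beaded filaments around cells, and its 5 genes on the array split by chain. Col6a1 ranged from -3.31 to -2.22 (median -2.55, mean -2.68, SD 0.37; adjusted p = 1.6e-10) and Col6a2 from -3.06 to -2.44 (median -2.64, mean -2.70, SD 0.22; adjusted p = 4.3e-12). Col6a4 was higher, from -0.05 to 1.57 (median 1.22, mean 1.13, SD 0.46; adjusted p = 6.2e-06), and C10-416 alone lay below 0. Col6a5 was called higher but was detected in Cy-3 on no array and in Cy-5 on 1 array, and no fold can be given. Col6a6 was not called and was detected in neither dye on any array.

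In the short-chain networks the 2 chains of type VIII collagen, a component of the subendothelial matrix, lay on opposite sides of 0. Col8a1 ranged from -4.13 to -3.50 (median -3.71, mean -3.75, SD 0.21; adjusted p = 2.5e-13) and Col8a2 from 1.11 to 1.92 (median 1.43, mean 1.47, SD 0.25; adjusted p = 4.5e-09). Col10a1, a marker of cartilage growth zones, was not called and was detected on 1 array in each dye. The multiplexins Col15a1 and Col18a1 are basement membrane collagens. Col18a1, the source of endostatin, was lower on every array (mean -3.10, SD 0.27). Col15a1 was called higher (measured mean 1.59, SD 0.81) but was detected in Cy-3 on 3 arrays only. With Cy-3 raised as for Col19a1 the difference was 2.20-fold on the processed signals, and the other background corrections gave less. The call of Col15a1 was also lost with normexp, at 0.23, and with the subtraction, at 0.53.

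None of the 4 membrane-spanning collagens was lower. Col13a1, found at neuromuscular synapses, ranged from 2.08 to 2.88 (median 2.32, mean 2.38, SD 0.26; adjusted p = 4.1e-11) and was detected in Cy-3 on 9 arrays. Col23a1 had a mean of 2.27 (SD 0.20). Col25a1, whose product is deposited in amyloid plaques, was above 0 on every array, from 0.15 to 0.78, but its mean of 0.43 (SD 0.22; adjusted p = 0.00027) fell short of the fold required. Col17a1, the collagen of skin hemidesmosomes, was also not called (mean 0.43, SD 0.55).

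Col26a1 had the highest ratio among the 26 collagens detected in both dyes on every array, from 3.60 to 4.56 (median 4.13, mean 4.09, SD 0.35; adjusted p = 1.9e-12). Cy-5 was 17.0-fold brighter than Cy-3. Col7a1, the chain of skin anchoring fibrils, had a mean of -0.51 (SD 0.37; adjusted p = 0.0013) and fell short of the fold required. Without C10-434 it was -0.59 and was called lower. Col28a1 was not called (mean 0.12, SD 0.56) and was detected in neither dye on any array.

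Many of these values rest on the probe chosen, since 24 of the 42 genes had more than 1 probe and the brightest was used. In 12 genes at least 2 probes were detected in both dyes on at least 8 arrays, and their means lay within 1 log2 unit in 5 genes, with a median difference of 1.10. For Col2a1 a probe gave -4.40 (SD 0.34) and the other gave -0.11 (SD 0.18). For Col11a2 the probes gave 1.83 (SD 0.30) and -0.30 (SD 0.22), and for Col4a6 -2.26 (SD 0.22) and -0.21 (SD 0.31). In each of these 3 genes the probe given second was not called, and the difference was several times the spread between arrays. That of Col11a2 was below 0 on every array (limma, adjusted p = 0.0041) but fell short of the fold required. A further Col4a6 probe, detected in Cy-5 on 1 array, gave -2.23. The second probe of Col3a1, detected in Cy-5 on 6 arrays, gave -2.23 (SD 1.25) against -5.31, and that of Col5a3, detected on 6 arrays in Cy-5 and 9 in Cy-3, gave -0.70 (SD 0.24) against -2.46. Both were called lower, and the mean over probes was -3.77 for Col3a1 and -1.58 for Col5a3. The Col1a1 probes gave -5.58 and -4.05, the Col5a1 probes -4.11 and -2.88 and the Col23a1 probes 2.27 and 1.10, all called in the same direction. Col6a4 was called higher by a probe at 1.13 and not called by the other at 0.11. Probes of Col4a1 (-2.46 and -2.44), Col18a1, Col4a2, Col24a1 and Col8a1 differed by 0.02 to 0.40.

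Probes not detected in a dye on any array gave bounds on the processed signals. The second probe of Col16a1 was at least 2.93-fold lower in Cy-5, in the direction of the brighter probe. Its measured ratio differed from 0 (limma, adjusted p = 2.9e-09). For a second probe of Col19a1, detected in Cy-5 on 7 arrays, the same step gave 1.98-fold higher in Cy-5. Cy-5 was not raised on the arrays where that probe was undetected. Its measured ratio differed from 0 (limma, adjusted p = 2.1e-05). Each bound takes, for the dim dye, the lowest signal among probes well above background on that array. The third probe of Col19a1 gave 1.08 (SD 0.34), below the bound of the brightest. All 3 probes of Col19a1 were called higher.

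**Figure D2:**
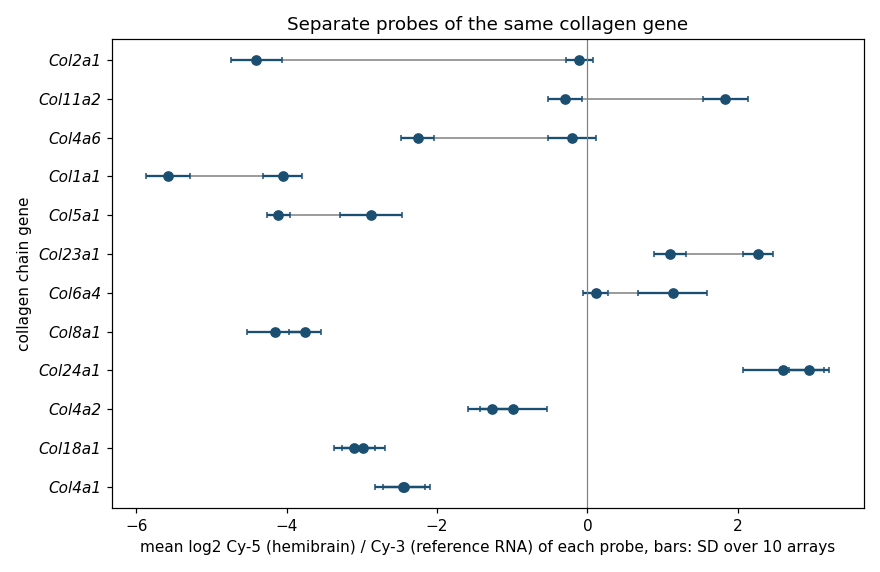
Mean log2 Cy-5/Cy-3 (x axis) of each probe of the 12 collagen genes with at least 2 probes detected in both dyes on at least 8 arrays, with the SD over 10 arrays. Grey lines join probes of a gene, from 4.29 apart for Col2a1 to 0.02 apart for Col4a1.

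Whether chains of the same protein varied together across the 10 arrays was asked over 8 pairs of chains. Of these, 6 had both chains detected in both dyes on at least 8 arrays. Each animal had 1 array, so spread between animals and between arrays cannot be told apart. Levels of Col1a1 and Col1a2 spread more in Cy-3 (SD 0.35 and 0.37) than in Cy-5 (0.17 and 0.20). Those of Col6a1 and Col6a2 spread more in Cy-5 (0.51 and 0.42) than in Cy-3 (0.37 and 0.35). For Col6a1 and Col6a2, Pearson's r was 0.94 (permutation test with 100000 resamples, two-sided, p = 0.00014, adjusted p = 0.00084 over the 6 pairs) and Spearman's rho was 0.83 (permutation p = 0.0048, adjusted p = 0.029). C10-423, C10-435 and C10-417 were the lowest arrays for both chains, and C10-413 was the highest. Without C10-423 and C10-435, the 2 arrays farthest from the median of Col6a1, r was 0.82. For Col1a1 and Col1a2, r was 0.93 (permutation p = 0.00068, adjusted p = 0.0020) and rho was 0.77 (permutation p = 0.012, adjusted p = 0.036), and r was 0.82 without C10-434 and C10-417.

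The other 4 pairs did not pass. Col4a1 with Col4a2 had an r of 0.61 (permutation, adjusted p = 0.12; rho 0.60, adjusted p = 0.15), and without C10-415 and C10-413 r was 0.79. Without C10-415 alone r was 0.77 and the pair passed. Col5a1 with Col5a2 had an r of -0.57 (permutation, adjusted p = 0.13; rho -0.32, adjusted p = 0.47), which was -0.10 without C10-434 alone, and without C10-435 alone it was -0.77 and the pair passed. Under subtraction with a floor the same r was 0.87 and under normexp 0.95, so its sign rests on the processing. Under normexp r was also -0.69 for Col8a1 with Col8a2 and 0.81 for Col11a1 with Col11a2. Col8a1 with Col8a2 had an r of 0.24 (permutation, adjusted p = 0.60; rho 0.22, adjusted p = 0.54) and Col11a1 with Col11a2 an r of -0.18 (permutation, adjusted p = 0.61; rho -0.31, adjusted p = 0.47). Without the 2 arrays farthest from the median, r was 0.29 for type VIII and 0.15 for type XI. A slide held at most 4 arrays, too few for a value within slides.

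The resemblance within these pairs was shared by many genes, and chains of a pair were not each other's nearest pattern. Among 10532 genes detected in both dyes on every array, Col6a2 ranked 14th by correlation with Col6a1, and Col6a1 ranked 25th by correlation with Col6a2. Col1a2 ranked 109th for Col1a1, and Col1a1 ranked 67th for Col1a2. Nearest to Col6a1 were Tnks1bp1, Rin1 and Rgs11 (r of 0.96 for each), nearest to Col6a2 Sorbs3, Fgd1 and Atad3a, nearest to Col1a1 Usp29, Mlc1 and Cnnm1, and nearest to Col1a2 Eid2, Unc13a and Ckb. Of all genes compared, 17.7% to 21.2% had an r above 0.5 with each of these 4 chains. These correlations across genes share the same 10 arrays and carry no test.

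**Figure D3:**
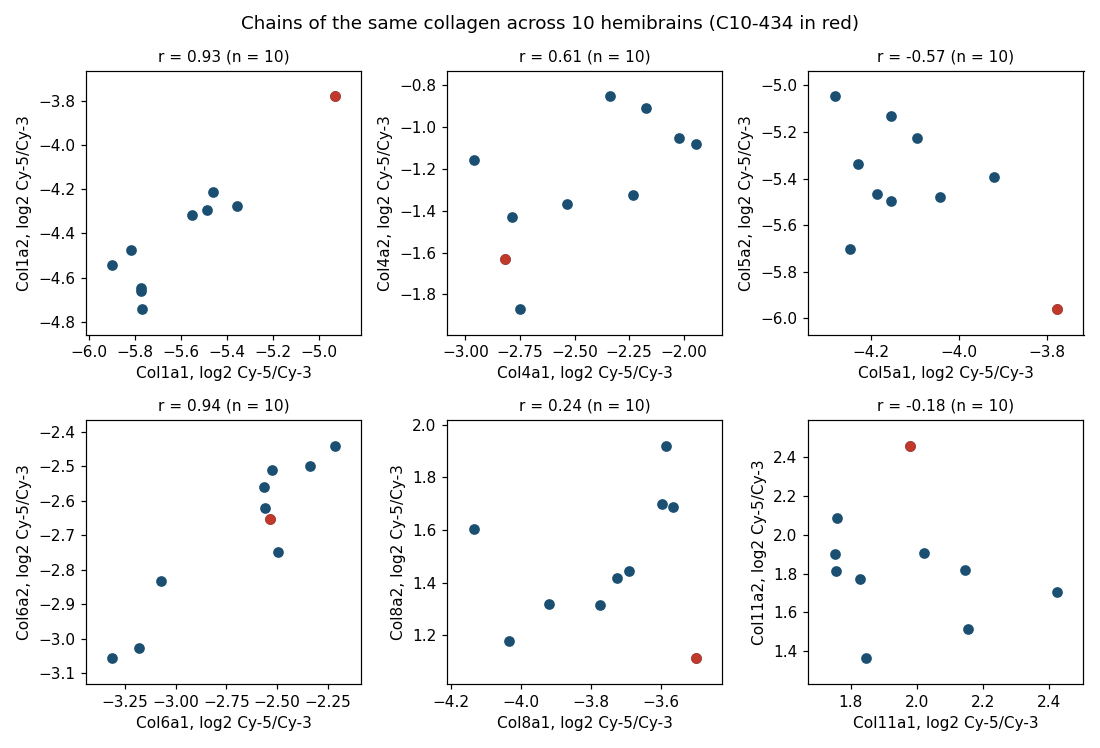
Log2 Cy-5/Cy-3 of 2 chains of the same collagen, a point for each of the 10 arrays, with C10-434 in red. Points rise along a line for Col1a1 with Col1a2 (r = 0.93) and Col6a1 with Col6a2 (r = 0.94), and C10-434 lies at a corner of the Col1 and Col5 panels.

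Across the 28 collagens detected in Cy-5 on every array, C10-434 was the highest or lowest array for 12, C10-413 for 10 and C10-437 for 9, whereas C10-417 was at neither end for any. Arrays shared 4 slides, and 2 of these slides had 4 arrays. Between them no collagen differed at an adjusted p under 0.05 (limma over all probes, smallest adjusted p = 0.50), 1 of 42 had an unadjusted p under 0.05, and over all genes 0.0814% were called, or 7.73% at an unadjusted p. On simulated data, shifts of 1.5 on the log2 scale were recovered for 57% of probes in this comparison, so smaller slide differences could be missed.

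Collagen chains need a set of enzymes, partners and receptors, and 51 of 56 such genes were found on the array. Of these 9 were higher, 32 were lower and 10 were not called, with a median of -1.46. Among the 18 procollagen-modifying enzymes and chaperones 15 were lower, 1 was higher and 2 were not called (median -1.64). Plod2, a lysyl hydroxylase, ranged from -4.83 to -4.40 (mean -4.54, SD 0.13). The collagen chaperones Fkbp10 (-3.39, SD 0.23) and Serpinh1 (-2.88, SD 0.23) and the prolyl hydroxylase subunit P4hb (-2.55, SD 0.24) were also lower. Colgalt2, which adds galactose to collagen, was the exception. Since it was detected in Cy-3 on 1 array only, its difference is a bound on the processed signals, at least 13.0-fold higher in Cy-5. Mia3, an export receptor for procollagen, was not called (-0.10, SD 0.15).

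Of 10 processing and cross-linking genes 6 were lower, 1 was higher and 3 were not called (median -2.36). Pcolce, the enhancer of C-propeptide cleavage, had a mean of -4.13 (SD 0.22), and the cross-linking enzymes Loxl2 (-3.75, SD 0.25) and Loxl1 (-3.73, SD 0.19) were close to it. The N-propeptidase genes split, with Adamts2 at -3.29 (SD 0.21) and Adamts3 at 3.65 (SD 0.31). The C-propeptidase Bmp1 was not called (-0.15, SD 0.30).

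Of 15 matrix partners 9 were lower, 4 were higher and 2 were not called (median -1.44). Lower were the proteoglycan genes Bgn (-4.07, SD 0.38) and Hspg2 (-3.24, SD 0.20), and Nid2 (-3.94, SD 0.25) and Nid1 (-3.74, SD 0.11), which link laminin to type IV collagen. The laminin chains split. Lama4 (2.39, SD 0.30) and Lama2 (1.88, SD 0.39) were higher, whereas Lamb1 (-2.92, SD 0.16), Lama5 (-2.54, SD 0.20) and Lamb2 (-1.05, SD 0.24) were lower. Lama1 was also called higher but was detected in Cy-3 on no array. The proteoglycan Agrn (1.40, SD 0.16, over 8 arrays after flagged spots were left out) was higher. Of 8 receptor genes 3 were higher, 2 were lower and 3 were not called (median 0.38). Itga1 (2.49, SD 0.60) and Adgrg1, the receptor of type III collagen in the developing cortex (2.44, SD 0.18), were higher, whereas Ddr2 (-3.72, SD 0.15) and Itgb1 (-2.87, SD 0.19) were lower.

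**Figure D4:**
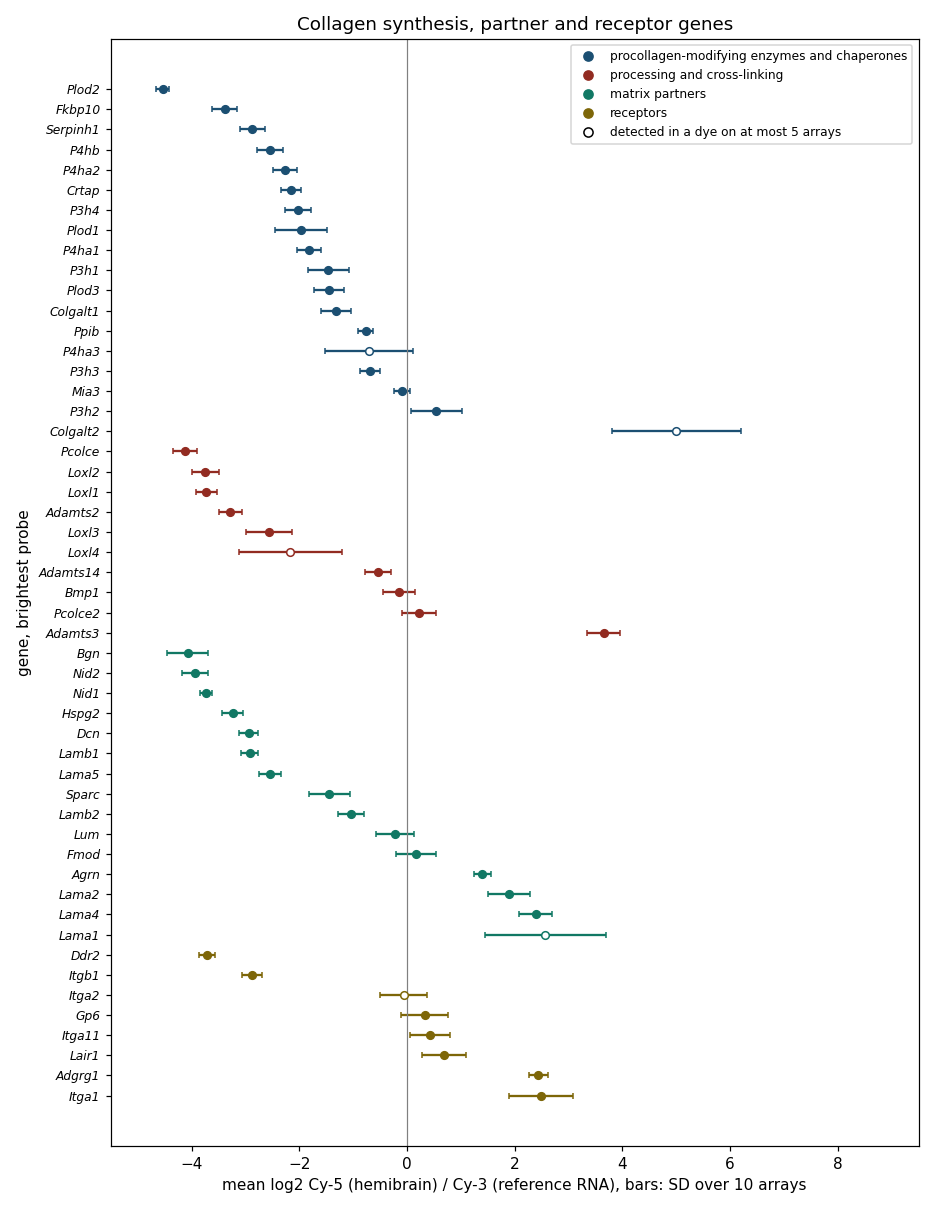
Mean log2 Cy-5/Cy-3 with SD (x axis) of 51 collagen pathway genes in 4 lists, over 10 arrays (Agrn over 8). Of the 18 modifying enzymes and chaperones 15 were lower in Cy-5, and Colgalt2 alone was called higher. Open points mark genes detected in a dye on at most 5 arrays, whose plotted mean depends on a signal near background.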

How the data were processed

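Agilent dual dye arrays held hemibrain RNA in Cy-5 and another RNA in Cy-3. The authors deposited, for each array, Feature Extraction output (version 10.10.1.1 in the headers) with intensity columns on a linear scale (median, background-subtracted and processed signals, the latter background-corrected and dye-normalized), a log10 ratio and flags, and a table of values that proved to be log2 of Cy-5/Cy-3 (r at least 0.997 with the scanner ratio on every array). Of the 45018 spots per array, 43379 were not controls, and none of these was saturated. Signal over background and the number of arrays limit the precision.

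From the processed signals, log2 Cy-5/Cy-3 was computed without further loess, outlier-flagged spots were left out and spots of a probe were averaged. A probe was well above background when at least 0.5 of its spots were flagged so. For the bounds only, the processed signals were loess-fitted and their mean levels over both dyes quantile-normalized between arrays (limma, Aquantile). Accessions were paired with symbols through RefSeq GRCm38.p6, and the promoter sequences came from RefSeq. 27198 of 41174 probes were named, and a gene was its probe of highest mean level over both dyes. Ratios were tested against 0 with limma 3.58.1 in R 4.3.3. Permutations were run with numpy 2.4.6, with ranks from scipy 1.17.1. In simulated data of 40060 probes, 87.5% of the 200 shifted by 1 were recovered, and 7 unchanged probes were called. The simulated noise was drawn separately for each probe and array, without shifts shared by the genes of an array. Normexp was run on median signals, and both it and the subtraction with a floor were followed by loess. Values are given in full for the 5 highest and 5 lowest collagens detected in Cy-5 on every array, the 3 of largest SD and the chains of the pairs, and others were named to account for every member. Within the pathway lists, the genes named were chosen after their values were seen. The members and lists were chosen with earlier results of these data known.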

Additional observations from a re-analysis of the deposited data

Results flagged for a closer look

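Of 42 collagen genes examined for an array far from the others, 6 (14.3%) had one, beside 1856 (10.5%) of the 17659 named genes that had all 10 values, and chance gives about 1 in 20. Animal C10-434, whose Cy-5 signal was the dimmest, was the array set apart in 4 of the 6 collagens and in 904 (48.7%) of the 1856 genes, so such values were common over the whole array. It was highest for Col16a1, at -1.87 against -2.79 to -2.31 on the other arrays, and for Col22a1, at 3.15 against 2.09 to 2.62. It was lowest for Col17a1, at -0.93 against 0.14 to 0.99, and for Col27a1, at -1.04 against -0.12 to 0.62. Col17a1 and Col27a1 were detected in Cy-5 on 9 arrays, Col16a1 and Col22a1 on all 10. C10-413 was highest for Col2a1, at -3.55 against -4.88 to -4.32. C10-416 was lowest for Col6a4, at -0.047 against 0.87 to 1.57.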

How the results depend on the processing

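The count of collagens called higher lay between 12 and 19 and that of collagens called lower between 18 and 20 over all alternatives, and no called gene changed sign. It was 12 under normexp, under subtraction with a floor and with only probes above background, and 19 under loess or with no fold minimum. Called ratios lay nearer to 0 by a median of 0.74 under normexp and 0.41 under subtraction (log2). Both of these add an offset of 50 to the signals and end with a loess fit. The calls of Col4a3, Col6a5, Col9a1 and Col15a1 were lost under both other background corrections, and Col14a1, Col17a1 and Col25a1 became called under loess. Pathway genes called higher lay between 7 and 12 and those called lower between 29 and 34. The 2 chain pairs that passed became 6 under normexp and 5 when the Cy-5 level replaced the ratio, and 2 to 3 passed with each array left out. Under subtraction with a floor 3 passed, but Col6a1 with Col6a2 did not (r = 0.66, permutation, adjusted p = 0.058). Without C10-434, Col1a1 with Col1a2 had an r of 0.83 (permutation, adjusted p = 0.039). The cause of these changes was not tested. No collagen differed between slides under any alternative run. Genes near background in a dye have ratios limited by signal over background. No paired analysis was possible because the arrays form a single group.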
